A study of Rattus norvegicus with 8 samples.

Results

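The 4 cyclophilin genes Ppid, Ppif, Ppia and Ppib, of 13337 genes named on the array, were read by 5 of its 22523 probes in thigh skeletal muscle of 8 Wistar Han rats. Muscle came from 4 rats fed sulfonyl isoxazoline compound 197 at 150 ppm for 28 days and from 4 control rats on standard laboratory chow, and total RNA of each rat was hybridised to 1 Illumina beadchip, an array that reads each transcript with short probes on beads. Compound 197 is known here by its code alone, and by its title the series deals with muscle mitochondria damaged by xenobiotics. The labels used here state neither age nor sex. The probes were found by gene symbol in the platform annotation: 2 for Ppid, designed to the same transcript record, and 1 each for Ppif, Ppia and Ppib. The group was chosen on the change of Ppid between these same arrays. Of 124 genes with 2 tested probes, Ppid was the 1 gene whose probes both had a fitted log2 change of at least 1.5. On at least 1 probe, 22 of those genes had such a change. The first count depends on the processing: 1 Ppid probe, above background on no control array, had a fitted change of 1.20 without background correction. It also uses the values on which the group was chosen, and nothing is read from it. For that reason the changes of the 5 probes between the groups are given as a description, without p-values, and nothing is read from their calls.

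Cyclophilins are peptidyl-prolyl isomerases: they turn the peptide bond before a proline between its cis and trans forms, and so help proteins to fold or to switch shape. They are the cellular targets of cyclosporin A. Ppid encodes cyclophilin 40, a cytosolic member that binds Hsp90 through tetratricopeptide repeats and takes part in steroid receptor complexes. Ppif encodes cyclophilin D of the mitochondrial matrix, a regulator of the permeability transition pore, through which calcium overload depolarises mitochondria. Ppia encodes cyclophilin A, the abundant cytosolic form through which cyclosporin inhibits calcineurin, and Ppib encodes cyclophilin B of the endoplasmic reticulum, which acts on procollagen. The name CypD is a synonym of both Ppid and Ppif in RefSeq, so that the nuclear gene of the mitochondrial protein is here always called Ppif.

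The promoters of the 4 genes are shown because the genes share an enzymatic domain but differed in their change between the groups. Each window runs from 250 bases before to 50 bases after the annotated start, and is taken from RefSeq on build GRCr8 (Ppid, chr2:167025735-167026034; Ppif, chr16:1263751-1264050; Ppia, chr14:85492966-85493265; Ppib, chr8:75498716-75499015; all on the plus strand). Capitals mark the ETS core CCGGAA, the CCAAT box, the GC box GGGCGG and the TATA box TATAAA, searched on both strands; no matches overlapped.
Ppid: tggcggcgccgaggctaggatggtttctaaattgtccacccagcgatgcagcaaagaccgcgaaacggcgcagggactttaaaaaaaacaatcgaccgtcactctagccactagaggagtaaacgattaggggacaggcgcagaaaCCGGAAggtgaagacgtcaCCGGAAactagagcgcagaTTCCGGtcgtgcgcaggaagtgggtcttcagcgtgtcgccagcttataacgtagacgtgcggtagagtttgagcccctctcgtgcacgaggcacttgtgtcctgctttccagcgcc
Ppif: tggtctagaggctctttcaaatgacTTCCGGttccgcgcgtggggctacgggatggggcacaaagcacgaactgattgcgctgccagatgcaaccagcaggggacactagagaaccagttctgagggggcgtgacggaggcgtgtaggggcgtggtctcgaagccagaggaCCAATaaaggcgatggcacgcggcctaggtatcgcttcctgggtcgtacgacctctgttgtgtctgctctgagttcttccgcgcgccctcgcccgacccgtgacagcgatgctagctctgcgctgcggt
Ppia: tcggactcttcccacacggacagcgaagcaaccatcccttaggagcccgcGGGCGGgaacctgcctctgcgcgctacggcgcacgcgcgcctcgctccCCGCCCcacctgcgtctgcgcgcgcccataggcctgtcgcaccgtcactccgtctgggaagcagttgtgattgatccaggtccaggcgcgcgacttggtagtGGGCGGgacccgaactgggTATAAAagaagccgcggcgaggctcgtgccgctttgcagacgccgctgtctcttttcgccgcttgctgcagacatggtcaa
Ppib: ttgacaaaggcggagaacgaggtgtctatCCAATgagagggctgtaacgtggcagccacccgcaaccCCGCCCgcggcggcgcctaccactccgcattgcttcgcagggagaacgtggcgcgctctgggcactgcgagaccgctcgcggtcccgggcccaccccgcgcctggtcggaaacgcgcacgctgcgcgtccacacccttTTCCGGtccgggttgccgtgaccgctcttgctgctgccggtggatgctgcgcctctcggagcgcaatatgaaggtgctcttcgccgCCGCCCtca
The Ppid window held 3 ETS cores, with first bases at -104, -85 and -66 relative to the start, and none of the other marked motifs. In the Ppia window there were 3 GC boxes and a TATA box at -31, and no ETS core. Ppif had 1 ETS core and 1 CCAAT box, and Ppib had 1 ETS core, 1 CCAAT box and 2 GC boxes. Over all 33469 windows of the same length, 15.0% held an ETS core, 37.5% a CCAAT box, 33.1% a GC box and 14.2% a TATA box, and 1.02% held at least 3 ETS cores. These shares were not matched for base content. The bases G and C made up 51.7% of the median window, against 56.0% for Ppid, 61.3% for Ppif, 66.0% for Ppia and 68.0% for Ppib. The paired heat shock motifs GAANNTTC and TTCNNGAA were present in 8.6% and 8.8% of windows and in none of these 4 windows. The array data hold no measurement at these sites.

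Between 9743 and 10498 probes were above background (detection p under 0.05) on a compound 197 array and between 8310 and 9507 on a control array, and the lowest raw intensity was 51.1 to 55.5 on compound 197 arrays and 59.3 to 61.6 on control arrays. All 10 probes for muscle fibre markers, among them Acta1, Ckm and Tnnt3, were above background on all 8 arrays, with a summed intensity of 277209 to 325210 on compound 197 arrays and 279208 to 307857 on control arrays. Of these 10, the fast-fibre myosins Myh4 (13.0 in compound 197 muscle and 9.38 in control muscle, log2 means) and Myh2 (10.6 in compound 197 muscle and 6.25 in control muscle) were called higher, and their part in the cyclophilin values was not tested. Of other cell types, 1 of 4 tested endothelial probes was lower, and 0 of 6 fibroblast, 0 of 2 macrophage, 0 of 3 adipocyte, 0 of 3 Schwann cell and 0 of 2 erythroid probes were called. For T cell markers 4 of 5 probes were above background on no array, and the same held for the macrophage markers Adgre1 and Itgam. All 5 cyclophilin probes passed the filter, which asked for a signal above background on at least 4 arrays and left 9873 probes. In bulk tissue, a change in the share of a cell type and a change in RNA per cell cannot be told apart.

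Ppid was the cyclophilin that differed most between the groups, and it was higher on both of its probes after feeding with compound 197. On the brighter probe, the normalised log2 intensity was 10.76, 10.79, 10.98 and 10.78 in muscle of the 4 rats fed compound 197, against 8.98, 8.92, 9.02 and 9.16 in the 4 control rats. All compound 197 values lay above all control values, and the gap between the nearest arrays, 1.60, was wider than the span within the compound 197 group (0.21) or the control group (0.24). The mean was 10.83 ± 0.10 in compound 197 muscle and 9.02 ± 0.10 in control muscle (SD, n = 4 each), a log2 change of 1.81 ± 0.10 (SE), or 3.50-fold. In the raw intensities as deposited, the same probe averaged 2023 ± 175 in compound 197 muscle and 565 ± 64.7 in control muscle (SD, n = 4 each), so the difference was present before background correction and normalisation.

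The dimmer Ppid probe read the same direction close to the floor of the arrays. Its log2 intensity was 7.04, 7.28, 7.01 and 6.90 in the compound 197 rats, against 5.03, 5.08, 4.98 and 4.97 in the control rats, with no overlap between the groups. It was above background on all 4 compound 197 arrays and on 0 of 4 control arrays, where its detection p ran from 0.234 to 0.411. The control level of this probe is thus a bound: relative to the lowest signal above background, the probe was at least 2.92-fold higher in compound 197 muscle, and at least 1.84-fold higher without background correction. The fitted means, 7.06 ± 0.16 in compound 197 muscle and 5.02 ± 0.05 in control muscle (SD, n = 4 each), gave a log2 change of 2.04 ± 0.10 (SE). Raw intensities were 213 to 223 on compound 197 arrays and 87.3 to 95.6 on control arrays, whereas the lowest raw intensity of the whole array, given above, was lower on the compound 197 arrays.

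**Figure D1:**
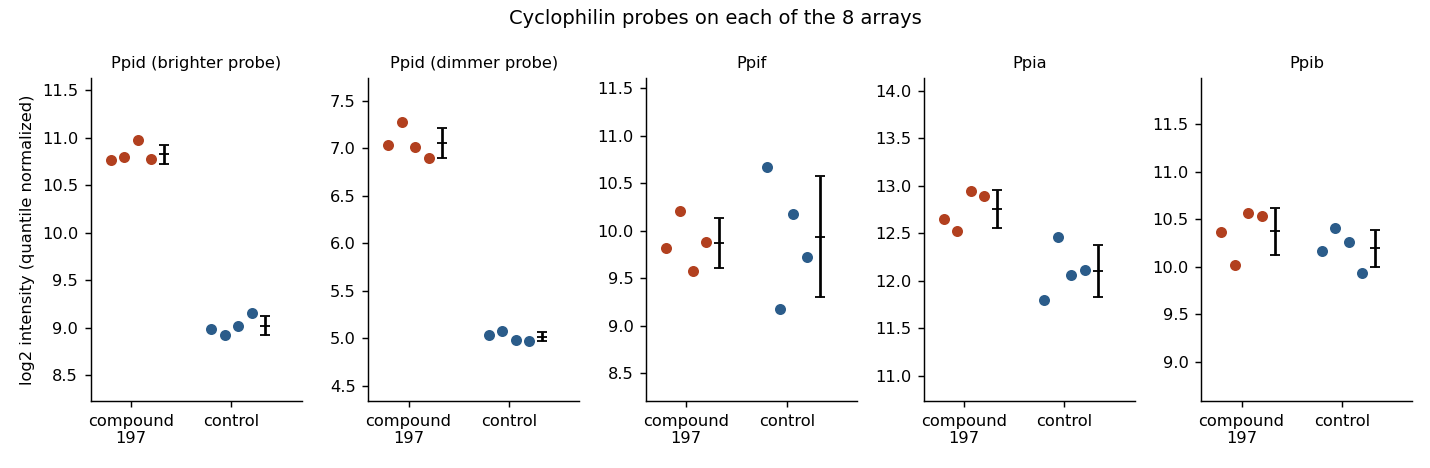
Normalised log2 intensity of the 5 cyclophilin probes, with 1 point per rat, 4 rats fed compound 197 on the left of each panel and 4 control rats on the right, and the mean ± SD beside the points. Each panel spans the same range of log2 units; both Ppid probes separate the groups widely, Ppia separates them narrowly, and Ppif and Ppib overlap.

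Among all probes tested, 95.1% had a smaller change than the brighter Ppid probe. Ppid was chosen on its change between these arrays, so nothing is read from that rank. No such rank is given for the dimmer probe, whose change has a lower bound only, and for the same reason the distance between the 2 probes within a rat is not read.

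The RefSeq table lists 21 pseudogenes of Ppid and 15 of Ppia, and none of Ppif or Ppib. No probe of the array is named for such a pseudogene. Whether the Ppid and Ppia probes also bind transcripts of these copies was not tested.

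By the fixed measure of likeness, the correlation of deviations from the group means over 8 arrays, the named probes closest to the brighter Ppid probe were those of Snx14 (r = 0.99), Oasl2 (0.96), Gsdmd (0.96), Ociad1 (0.95) and Hip1r (0.95). For the dimmer probe, whose 4 control values lie at the background, they were Rps6ka2 (0.99), Gimap9 (0.97), Stk32c (0.96), Ncoa1 (0.95) and Ubald1 (0.95). Without the 2 arrays farthest from its median, r for the brighter probe ran from 0.55 (Hip1r) to 0.97 (Snx14). For the dimmer probe, without its own 2 farthest arrays, r ran from 0.73 (Ncoa1) to 0.96 (Rps6ka2). No gene stood in both sets of 5. The deviations of the 2 Ppid probes themselves had r = -0.26 over the 8 arrays. Without the 2 arrays farthest from the median of the brighter probe it was -0.03. The SD of the brighter Ppid probe was 0.10 in each group, so its likeness rests on small differences among 8 arrays, picked out of 7298 probes, and that of the dimmer probe rests partly on arrays without a signal above background.

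Ppif, the mitochondrial cyclophilin, did not separate the groups. Its log2 intensity was 9.81, 10.21, 9.57 and 9.87 in compound 197 muscle, against 10.67, 9.17, 10.18 and 9.73 in control muscle. The highest and the lowest Ppif values of the study were both in control rats, replicates 1 and 2, and all compound 197 values lay between them. The mean was 9.87 ± 0.26 in compound 197 muscle and 9.94 ± 0.64 in control muscle (SD, n = 4 each), and the log2 change was -0.07 ± 0.29 (SE). This change was 0.51 ± 0.32 (SE) with median scaling, the scaling that moved it most. The control SD of Ppif was larger than that of 94.2% of all probes tested. A change of the size of that standard error was not detectable with 4 rats per group.

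The spread of Ppif went along with that of Mb and, less closely, of Myh7. Both were picked from the 10 muscle fibre probes after their values were seen. The other probes of that list, among them Myh2, were not compared with Ppif. Mb, which encodes myoglobin, the oxygen-binding protein of oxidative fibres, had a log2 intensity of 13.99, 14.37, 13.33 and 14.38 in compound 197 muscle and of 14.13, 11.17, 13.94 and 13.28 in control muscle. In the control group Mb was highest in replicate 1 and lowest in replicate 2, as was Ppif. Over the 8 arrays, the deviations of Ppif and Mb from their group means had r = 0.91, and r = 0.84 without the 2 arrays farthest from the median. For Myh7, the myosin heavy chain of slow fibres, r was 0.71, and 0.60 without its 2 farthest arrays; its log2 intensity ran from 9.07 to 14.97 in compound 197 muscle and from 6.23 to 14.63 in control muscle. The arrays thus differed in slow-fibre transcripts within both groups, and the part of this in the Ppif values was not tested.

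**Figure D2:**
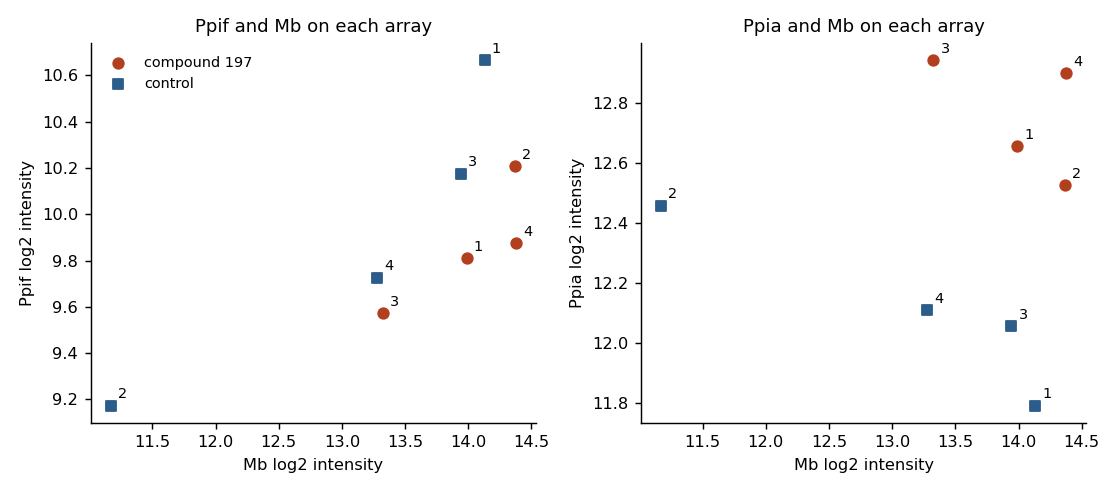
Log2 intensity of Ppif (left) and Ppia (right) against that of Mb on each of the 8 arrays; circles are rats fed compound 197, squares are control rats, and the digits are replicate numbers. Control replicate 2, with the lowest Mb at 11.17, has the lowest Ppif at 9.17 and, at 12.46, the highest control value of Ppia.

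Ppia, cyclophilin A, was higher in compound 197 muscle by a smaller amount than Ppid. Its log2 intensity was 12.65, 12.53, 12.94 and 12.90 in the compound 197 rats, against 11.79, 12.46, 12.06 and 12.11 in the control rats. The groups did not overlap, but the lowest compound 197 array and the highest control array, control replicate 2, were only 0.07 apart. Means were 12.75 ± 0.20 in compound 197 muscle and 12.10 ± 0.27 in control muscle (SD, n = 4 each), a log2 change of 0.65 ± 0.16 (SE), or 1.57-fold. Median scaling gave a change of 1.26 ± 0.26 (SE). On leaving out 1 array at a time the change stayed between 0.55 and 0.77. The deviations of Ppia ran against those of Ppif, with r = -0.91 over the 8 arrays and -0.72 without the 2 arrays farthest from the median, and against those of Mb, with r = -0.82 and, without 2 arrays, -0.43.

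Ppib, cyclophilin B, had a log2 intensity of 10.37, 10.02, 10.57 and 10.54 in compound 197 muscle, against 10.17, 10.41, 10.27 and 9.94 in control muscle. The groups overlapped, and the lowest arrays of each, compound 197 replicate 2 and control replicate 4, were within 0.1 of each other. The mean was 10.37 ± 0.25 in compound 197 muscle and 10.20 ± 0.20 in control muscle (SD, n = 4 each), a log2 change of 0.18 ± 0.15 (SE). With median scaling this change was 0.75 ± 0.27 (SE).

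In the fit over all probes, 3 of the 5 cyclophilin probes lay past the threshold of limma's moderated test (adjusted p under 0.05), all higher: both of Ppid and that of Ppia. Of all probes tested, 40.5% were called, 16.3% higher and 24.1% lower. The same 3 cyclophilin probes had groups that did not overlap, and 40% of all probes had such groups, 16.2% with compound 197 higher and 23.8% with it lower. Nothing is read from the cyclophilin counts, since the genes were taken up with these values known.

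How large the changes were depended on the processing, while the order of the genes did not change in the settings plotted, apart from the order of the 2 Ppid probes. The share of all probes called was 28% relative to the median change (19.7% higher and 8.37% lower), 25.1% with median scaling and 27.4% with cyclic loess. Quantile normalisation set the median change of all probes at -0.18, median scaling at 0.31 and cyclic loess at -0.01. Relative to that median, the changes with quantile normalisation were 1.99 for the brighter Ppid probe, 2.22 for the dimmer, 0.83 for Ppia, 0.36 for Ppib and 0.11 for Ppif. The dimmer Ppid probe moved with the background correction, to a fitted change of 1.20 ± 0.07 (SE) without it and 1.38 ± 0.08 (SE) in the normalised table as the authors deposited it.

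**Figure D3:**
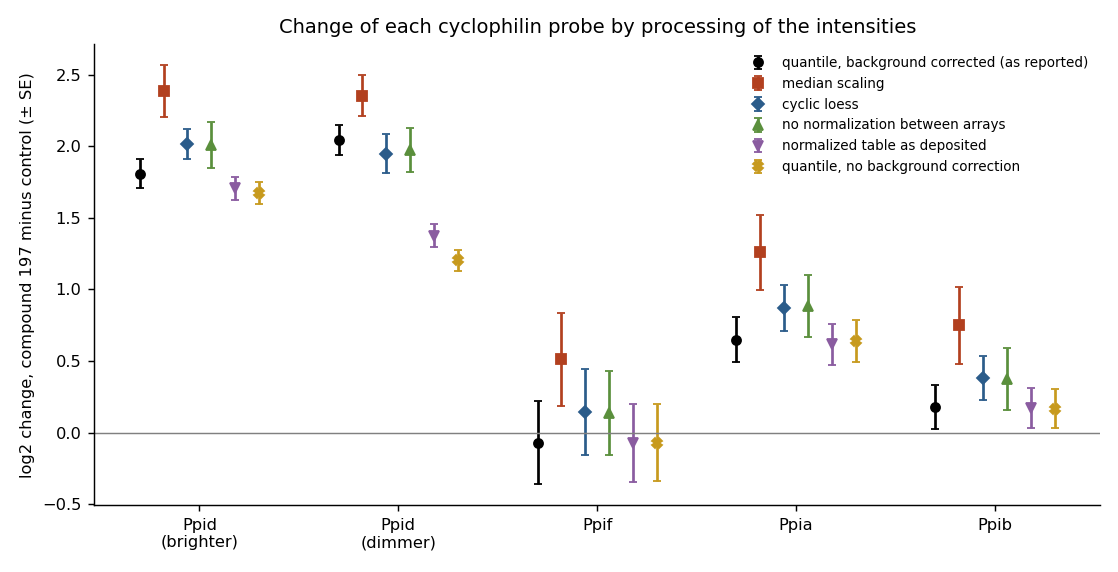
Log2 change, compound 197 minus control, of each cyclophilin probe under 6 ways of processing the intensities; points are fitted changes and bars are ± SE from 4 arrays per group. Both Ppid probes stay above 1 in every setting plotted, Ppia between 0.62 and 1.26, and Ppif lies on both sides of 0; the dimmer Ppid probe is drawn at its fitted change, although its control level is a bound.

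Among the other cyclophilins, Ppwd1 was called. Of the 13 listed, 5 had a named probe, all 5 passed the filter, and 1 rose, 0 fell and 4 did not pass (limma, adjusted p under 0.05); 16.3% of all probes were called higher, so 1 of 5 is not read as a result about the family. Ppwd1, a nuclear cyclophilin with WD40 repeats found in spliceosomes, had a mean of 8.01 in compound 197 muscle and 7.37 in control muscle and a log2 change of 0.64 ± 0.12 (limma adjusted p = 0.004). The other 4, named after their values were seen, had changes of 0.05 ± 0.11 for Ppie and -0.14 ± 0.15 for Ppil3, which act in the spliceosome, -0.31 ± 0.13 for Cwc27 and 0.14 ± 0.41 for Ppic, a secretory pathway cyclophilin. Their adjusted p-values from limma ran from 0.095 for Cwc27 to 0.807 for Ppic, and without compound 197 replicate 3 Cwc27 was called lower (limma adjusted p = 0.0499). Ppie passed with median scaling (change 0.75, limma adjusted p = 0.013) and with cyclic loess (change 0.32, limma adjusted p = 0.0453). Median changes were 0.05 over these 5 probes and -0.18 over all probes.

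FKBPs and parvulins catalyse the same isomerisation with unrelated folds, and FKBPs bind FK506 in place of cyclosporin. Of 9 tested probes, 1 rose, 1 fell and 7 did not pass, against 16.3% of all probes higher and 24.1% lower. Fkbp3, a nuclear FKBP, rose by 2.83 ± 0.14, with 12.56 in compound 197 muscle and 9.72 in control muscle (limma adjusted p = 5.49e-07). Fkbp1a, the small cytosolic FKBP that also binds the ryanodine receptor of muscle, fell by 0.46 ± 0.14, with 11.45 in compound 197 muscle and 11.91 in control muscle (limma adjusted p = 0.0308). That fall did not pass relative to the median change, with median scaling, with cyclic loess, or without compound 197 replicate 1, 3 or 4 (limma adjusted p = 0.0781, 0.0596 and 0.0699). With median scaling 3 FKBP and parvulin probes were higher and 0 lower, and 2 were higher without compound 197 replicate 2 or control replicate 1.

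Among Hsp90, its cochaperones and steroid receptors, the complex in which Ppid works, 3 of 12 tested probes rose, 3 fell and 6 did not pass. Over all probes, 16.3% were higher and 24.1% lower. The probes of all 3 rises were above background on 4 compound 197 arrays and 0 control arrays, so they entered the test through the group in which they were high, and with the filter on all 8 arrays 0 were called higher. Hsp90aa1, the inducible cytosolic Hsp90, averaged 8.17 in compound 197 muscle and 4.93 in control muscle. Its rise was at least 6.32-fold, and its fitted change had a limma adjusted p = 9.62e-08. That p-value, like those of the other rises here, rests on control values at the background and does not test the bound. Without background correction the bound was 3.22-fold. One probe of Unc45b, a muscle cochaperone that folds myosin with Hsp90, rose by at least 3.47-fold on the same terms (limma adjusted p = 1.56e-06), or at least 2.06-fold without background correction. The second Unc45b probe, named after its values were seen and above background on all 8 arrays, had a change of -0.11 ± 0.16 (limma adjusted p = 0.595), so the probes of that gene disagree. St13, which links Hsp70 to Hsp90, fell by 0.47 ± 0.11 (limma adjusted p = 0.00942), and Dnaja1, an Hsp40 cochaperone, fell by 0.44 ± 0.11 (limma adjusted p = 0.0118). The third rise and the third fall, named after their values were seen, were those of Ttc4 (limma adjusted p = 0.0415) and Cdc37 (limma adjusted p = 0.0486). For Ttc4 the lower bound did not lie above no change, so no fold is given for its rise. Its fitted change was -0.006 with no normalization between arrays. Ttc4 was not called with median scaling (limma adjusted p = 0.103), without background correction (limma adjusted p = 0.0541), or when any 1 array other than control replicate 2 was left out, and Cdc37 was not called when any 1 array other than compound 197 replicate 1 or 2 was left out. None of the 3 falls was called relative to the median change, with median scaling or with cyclic loess. With 4 probes higher and 0 lower by cyclic loess, against 19.4% and 8.02% of all probes, the split depended on the scaling as well as on the filter.

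For the permeability transition and the partners of Ppif in mitochondria, 3 of 24 tested probes rose, 6 fell and 15 did not pass. The shares of all probes were 16.3% higher and 24.1% lower. Rises were measured for Trap1, the mitochondrial Hsp90 that binds cyclophilin D, by 1.04 ± 0.13 (limma adjusted p = 0.000253), and for Hspd1, the matrix chaperonin, by 0.82 ± 0.14 (limma adjusted p = 0.00199). Sirt3, the mitochondrial deacetylase that acts on cyclophilin D, fell by 0.59 ± 0.09 (limma adjusted p = 0.0014), and Atp5f1c, the gamma subunit of ATP synthase, fell by 0.63 ± 0.12 (limma adjusted p = 0.00403). Neither fall was called with median scaling. Candidate components of the pore, named after their values were seen, differed in their calls. Atp5mc2, a c-subunit gene of ATP synthase, fell by 0.45 ± 0.10 (limma adjusted p = 0.00683), and Vdac2, a channel of the outer membrane, fell by 0.39 ± 0.09 (limma adjusted p = 0.011); neither was called with median scaling, which turned both changes positive (0.13 for Atp5mc2 and 0.22 for Vdac2), with cyclic loess or relative to the median change. Atp5po, the ATP synthase subunit that binds cyclophilin D, had a change of -0.22 ± 0.13 (limma adjusted p = 0.216), and Slc25a4, the adenine nucleotide carrier of muscle, had one of 0.18 ± 0.10 (limma adjusted p = 0.192). Slc25a4 passed relative to the median change (0.36, limma adjusted p = 0.028) and with median scaling (0.78, limma adjusted p = 0.00588), and not with cyclic loess. The median change of the 24 probes was -0.20 and that of all probes -0.18. With median scaling 6 were higher and 0 lower, against 23.2% and 1.91% of all probes.

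In the list of collagen and endoplasmic reticulum folding genes, the setting of Ppib, 4 of 23 tested probes rose, 7 fell and 12 did not pass. Among all probes, 16.3% were higher and 24.1% lower, so these counts are not read as a result about the list. With the filter on all 8 arrays 2 were higher, since Pdia3 and Crtap were then not tested. Pdia3, a disulfide isomerase that binds glycoproteins with calnexin, entered the test through the 4 compound 197 arrays, with no control array above background. It rose by at least 8.23-fold, or at least 3.99-fold without background correction. The p-value of its fitted change (limma adjusted p = 6.18e-08) rests on control values at the background and does not test the bound. P4hb, protein disulfide isomerase, rose by 1.06 ± 0.12, and Hsp90b1, the Hsp90 of the endoplasmic reticulum, by 0.93 ± 0.13 (limma adjusted p = 0.000135 and 0.000455). Crtap, which forms the collagen prolyl 3-hydroxylation complex with Ppib and P3h1, rose by 0.88 ± 0.15 (limma adjusted p = 0.00197), and 1 of 4 control arrays read it above background. Of genes named after their values were seen, Serpinh1, the collagen chaperone Hsp47, fell by 1.64 ± 0.34 (limma adjusted p = 0.0055), P3h4, a collagen-modifying cofactor, fell by 1.02 ± 0.20 (limma adjusted p = 0.00374), and P3h1 itself had a change of -0.27 ± 0.11 (limma adjusted p = 0.0829). The 2 partners of Ppib in that complex thus differed in their call, but the difference between their changes was not tested. With median scaling both changes were positive, 1.23 for Crtap and 0.32 for P3h1 (limma adjusted p = 0.00044 and 0.318). Fibroblast markers, read beside them, gave 0 of 6 probes past the threshold and a summed intensity of 15998 to 60126 in compound 197 muscle and 21188 to 50712 in control muscle; their part in these changes was not tested. Without compound 197 replicate 1 the falls numbered 4. With median scaling 1 remained, that of Serpinh1 (-1.04, limma adjusted p = 0.00862), while P3h4 was not called (-0.36, limma adjusted p = 0.18).

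Calcineurin, the phosphatase that cyclophilin A inhibits when cyclosporin is bound, was represented with its NFAT targets, its regulators and Bsg, the surface receptor of secreted cyclophilin A. Of 10 tested probes, 1 rose, 2 fell and 7 did not pass, against 16.3% of all probes higher and 24.1% lower. Among those 7 were the calcineurin subunit genes Ppp3ca, Ppp3cb and Ppp3r1, named after their values were seen. Of these, Ppp3ca passed with median scaling (0.66, limma adjusted p = 0.0404). Bsg rose by 0.43 ± 0.12 (limma adjusted p = 0.0182), a call lost without compound 197 replicate 4 (limma adjusted p = 0.0523). Nfatc3, an NFAT transcription factor, fell by 0.55 ± 0.11 (limma adjusted p = 0.00406), and Rcan2, a calcineurin regulator, fell by 0.55 ± 0.12 (limma adjusted p = 0.00763). With median scaling neither fall was called, and the changes were 0.036 for Nfatc3 and 0.035 for Rcan2; Rcan2 was not called with cyclic loess or relative to the median change either.

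**Figure D4:**
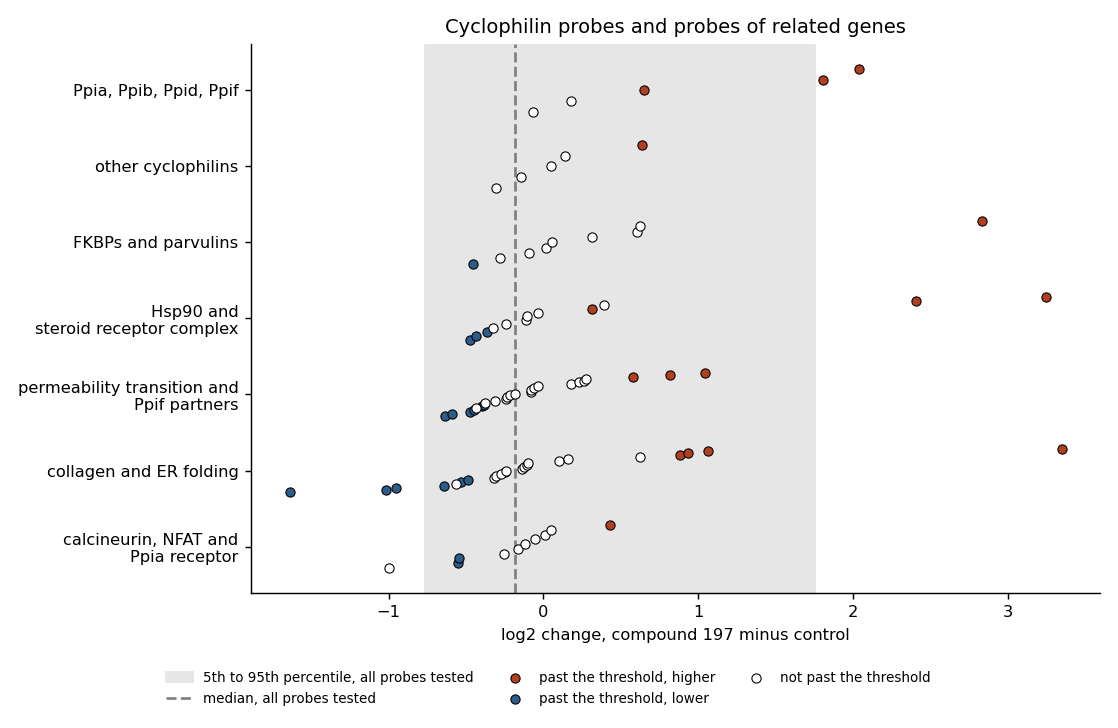
Log2 change, compound 197 minus control, of the cyclophilin probes (top) and of each tested probe of the 6 related gene lists, 1 point per probe, filled where limma's adjusted p was under 0.05. The band runs from the 5th to the 95th percentile of all 9873 probes tested (-0.76 to 1.76) and the dashed line is their median (-0.18); the brighter Ppid probe and Fkbp3 lie to the right of the band, and so do the fitted changes of the dimmer Ppid probe, Hsp90aa1, Pdia3 and a probe of Unc45b, which no control array read above background; the lower bound of the dimmer Ppid probe, 1.54, lies inside it.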

How the data were processed

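Gene expression was measured in 8 rat muscles on 1-colour Illumina beadchips. The intensity values were deposited by the authors before and after normalization, and beside each stands a deposited detection p-value, per the file headers. No source used here names the software or the way they were normalized. Every column of the normalized table holds the same sorted values.

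The non-normalized intensities were background-corrected with limma's nec from the detection p-values (offset 16), quantile normalized and put on the log2 scale; the deposited values are linear, not log2. Probes with detection p under 0.05 on at least 4 arrays were tested, 9873 in all, with limma 3.58.1 (lmFit and eBayes) in R 4.3.3 and Benjamini-Hochberg adjustment over all of them. The platform annotation named 13793 probes; symbols were updated by Entrez number for 13752. Named genes were all cyclophilin probes, and from each list up to 4 passing probes with the smallest adjusted p; others are marked as chosen after their values were seen. For likeness the rule took 5 probes for each Ppid probe. Members and lists were chosen with earlier results of these data known. Where no control array read a probe above background, a bound replaces its fold, provided that the bound lies above no change. Replicates are separate rats by the labels. Cage, slide and scan are not given. The p-values set each change against the spread between arrays of a group, and effects of cage, slide or scan on either cannot be told apart. Alternatives changed the background correction, scaling, source, filter, variance model, probes and arrays. The number of arrays limits the precision. Figures used matplotlib 3.10.9.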

Additional observations from a re-analysis of the deposited data

Results flagged for a closer look

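Arrays that stood apart within a group of 4 were sought for the cyclophilin probes and the probes named from the lists, in 66 groups, of which chance alone marks about 5%. In 3 groups the outermost array lay apart by Dixon's measure, the gap to its neighbour over the range of the group. The brighter Ppid probe read 10.98 in compound 197 replicate 3, with the next array at 10.79 and the lowest at 10.76. Hsp90aa1 read 5.04 in control replicate 4, with the next at 4.91, on a probe that no control array read above background. The second probe of Unc45b read 7.75 in control replicate 3, with the next at 8.10.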

How the results depend on the processing

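Both Ppid probes and Ppia stayed above 0 in every setting run. The brighter Ppid probe had a change of 1.67 without background correction, 1.71 in the deposited normalized table, 1.99 relative to the median change, 2.01 with cyclic loess, 2.01 with no normalization between arrays, 2.38 with median scaling and 1.92 with median scaling and no background correction together, the last chosen after seeing the data. For the dimmer probe the fitted changes were 1.20 without background correction, 1.33 with an offset of 50, 1.38 in the deposited table, 2.22 relative to the median, 2.35 with median scaling and 1.32 with the joint setting, and its lower bounds (1.54 as reported, log2) were 0.88, 1.07, 0.98, 1.73, 1.99 and 0.99 in the same settings, and 1.82 with cyclic loess. Leaving out 1 array gave bounds of 1.45 to 1.66. Ppia had 1.26, Ppib 0.75 and Ppif 0.51 with median scaling, and Ppia 0.94 and Ppib 0.42 with the joint setting. The dimmer Ppid probe was not tested where all 8 arrays had to be above background or where 1 probe stood for each gene.

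Over all probes 1613 were higher and 2382 lower. Higher calls numbered 906 with the filter on all 8 arrays and 931 with 1 probe per gene, where fewer probes were tested. Lower calls numbered 189 with median scaling, 792 with cyclic loess, 526 with no normalization, 826 relative to the median change and 353 with the joint setting; the cause was not tested. In the lists, 13 probes were higher and 19 lower. The higher were 20 with median scaling and 8 with the filter on all arrays, and the lower 1, 6, 2, 6 and 3 in those 5 scalings. With median scaling the changes turned positive for Atp5po (0.40), Cwc27 (0.26), Dnaja1 (0.15), Fkbp1a (0.16), Nfatc3 (0.036), P3h1 (0.32), Ppil3 (0.44), Rcan2 (0.035), St13 (0.15) and the second Unc45b probe (0.49), none of them past the threshold. They were also above 0 for Ppil3 and that Unc45b probe with cyclic loess (0.067 and 0.074), with no normalization (0.060 and 0.11), relative to the median (0.038 and 0.070) and in the joint setting (0.12 and 0.12), and for Atp5po with no normalization (0.021) and in the joint setting (0.10). On leaving out 1 array Ppic ranged from -0.11 to 0.47 and Ppie from -0.037 to 0.093.

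Same-numbered arrays of the groups did not deviate together over all tested probes (r from -0.13 to -0.04). Differently numbered arrays were not compared, and a pairing that touched few probes could go unseen, so this cannot exclude a pairing by number. With the number as a block (replicate block) the change of each probe was the same, 1.81 for the brighter Ppid probe; Bsg, Ttc4, Gsk3b, Cdc37 and Hspa5, the last 4 named after their values were seen, were no longer called (limma adjusted p = 0.0634, 0.0623, 0.0802, 0.0575 and 0.111), which left 10 higher and 17 lower in the lists, and all probes called numbered 1495 higher and 1734 lower. A slide block was not run, since no slide is named. Signal over background limits the control level of the dimmer Ppid probe and of Hsp90aa1, Pdia3, Ttc4, Atp5mc3 and the first Unc45b probe.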

Other observations

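The measure of likeness fixed for Ppid was applied to the other cyclophilins after the data were seen. Over the 8 arrays, deviations of Ppif from the group means were closest to those of Ndufs7, a complex I subunit gene (r = 0.99), Mrps5 of the mitochondrial ribosome (0.98), Card19 (0.98), Olr59 (0.98) and Perm1, a regulator of muscle mitochondria (0.98). Without the 2 arrays farthest from the median of Ppif, control replicates 1 and 2, these r ran from 0.93 to 0.97. None of these 5 probes passed the test between the groups.

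Deviations of Ppib were closest to those of Cthrc1, a secreted protein of matrix-forming cells (r = 0.99), Fuca1, a lysosomal fucosidase (0.98), Clstn1 (0.98), Atp6v0e1 of the proton pump (0.97) and Alox5ap (0.97). Those of Ppia were closest to Eif1a, a translation initiation factor gene (0.98), Igfbp3 (0.98), Tifa (0.98), Clec10a (0.97) and Krcc1 (0.97). Of these 10 probes Clstn1 and Atp6v0e1 were lower and Krcc1 higher in compound 197 muscle (limma, adjusted p = 0.018, 0.0202 and 0.0203). Ppia and Ppib deviated together with r = 0.67, and 0.77 without the 2 arrays farthest from the median. The points share libraries and normalization, and each set was the closest of 7299 probes.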
